A study of Mus musculus with 768 samples.

Results

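The Sox genes described here were 9 members of the SRY-related HMG-box family of transcription factors, taken by their symbols (*Sox9*, *Sox10*, *Sox8*, *Sox5*, *Sox6*, *Sox4*, *Sox11*, *Sox17* and *Sox18*) from the 24490 endogenous genes in the deposited tables, and not by their values. Their transcripts were measured by Smart-seq2 in single cells of 2 mammary tumors from the MMTV-PyMT model, mice of strain FVB/N-Tg(MMTVPyVT)634Mul/J at 14 weeks of age in which the MMTV promoter drives the polyoma middle T oncogene in the mammary epithelium. The sorted fraction was EpCAM-, CD45-, CD31- and NG2-, and the cells were labelled as cancer-associated fibroblasts (CAFs). Each tumor filled 384 wells of 1 plate, 1 cell per well, so the tumor was the replicate (n = 2), and tumor and plate cannot be told apart. All cells shared the genotype, and there was no treated or normal group.

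Sox proteins bind the minor groove of DNA through their HMG box and bend it, and they often act with partner factors. SOX9, with SOX5 and SOX6 as cofactors, is known for driving the cartilage program, and SOX10 and SOX8, the other members of the SoxE group, for neural crest derivatives such as Schwann cells and melanocytes. SOX9 and SOX10 are also known from mammary epithelium, SOX4 and SOX11 (SoxC) from progenitor cells, and SOX17 and SOX18 (SoxF) from endothelium.

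Of the 768 wells, 727 had at least 10000 reads outside the ERCC spike-ins, 373 from tumor 1 and 354 from tumor 2. The shallowest well kept had 10281 such reads, the deepest 1190516 and the median well 207477, while the deepest of the 41 wells left out had 9665. The kept wells were placed in classes by 4 genes that are not Sox genes, on the scale of RPKM (reads per kilobase of gene model, scaled to the reads of the well). Mia/Scrg1-positive cells had an RPKM of at least 10 for both *Mia* and *Scrg1*. Of the rest, Rgs5-high cells had an *Rgs5* RPKM of at least 10 and at least 4 times that of *Dcn* (1 added to both), and Dcn-high cells the reverse. This gave 24 Mia/Scrg1-positive cells (8 and 16 in tumors 1 and 2), 517 Rgs5-high cells (271 and 246), 168 Dcn-high cells (85 and 83) and 18 unclassified wells. The median depth was 259146, 196681 and 252178 reads in the 3 classes.

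Genes that had not been used for the classes were compared between them in counts summed per tumor and class (6 libraries), with edgeR's quasi-likelihood test and Benjamini-Hochberg adjustment over the 11715 genes whose RPKM averaged 1 or more in the kept wells. A gene is called changed here at an adjusted p under 0.05. All 7 genes checked for the Rgs5-high class, among them *Higd1b*, *Kcnj8* and *Notch3*, were called higher there than in each of the other classes. Of 9 genes checked for the Dcn-high class, 8 were called higher than in Rgs5-high cells, among them *Lum*, *Pdgfra* and *Lox*, and 5 higher than in Mia/Scrg1-positive cells, *Pdgfra* not among these (edgeR adjusted p = 0.0618). In Mia/Scrg1-positive against Rgs5-high cells, *Fbln2* of this list was called higher and *Lum* and *Lox* lower. *Trf*, *Spint2* and *Lcn2* were called higher in Mia/Scrg1-positive cells than in both other classes, and a *Trf* read was present in 24 of 24 of these wells. Many of the checked genes were markers that the study drew from these wells, so their calls are no independent check of the classes. *Pdgfra*, a fibroblast receptor, had a read in 155 of 168 Dcn-high, 63 of 517 Rgs5-high and 6 of 24 Mia/Scrg1-positive wells. Of the genes behind the sort, *Pecam1* (CD31) had a read in 2 Dcn-high wells and *Ptprc* (CD45) in 1 Rgs5-high well. *Epcam* had a read in 5 of 24 Mia/Scrg1-positive, 30 of 517 Rgs5-high and 18 of 168 Dcn-high wells, and *Cspg4* (NG2) in 16, 446 and 126.

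The members differed first in how many cells carried them. Of the 9, 8 had a read in the kept wells and *Sox17* had none. Only *Sox4* was widespread, with a read in 465 of 727 wells, followed by *Sox5* in 198, *Sox9* in 79, *Sox10* in 46, *Sox8* in 34, *Sox11* in 22, *Sox6* in 20 and *Sox18* in 9. At least 1 member was read in 561 wells. In Mia/Scrg1-positive cells the median number of members read per well was 5 of 9, and in both other classes it was 1. The wells also differed in all genes read, with a median of 6342 genes read per Mia/Scrg1-positive well, 4101 per Rgs5-high and 5590 per Dcn-high well, and the median ERCC share was 6.09%, 13.8% and 6.23%. Their part in the number of Sox members read was not tested. At least 4 members were read together in 18 of 24 Mia/Scrg1-positive, 2 of 517 Rgs5-high and 6 of 168 Dcn-high wells.

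**Figure D1:**
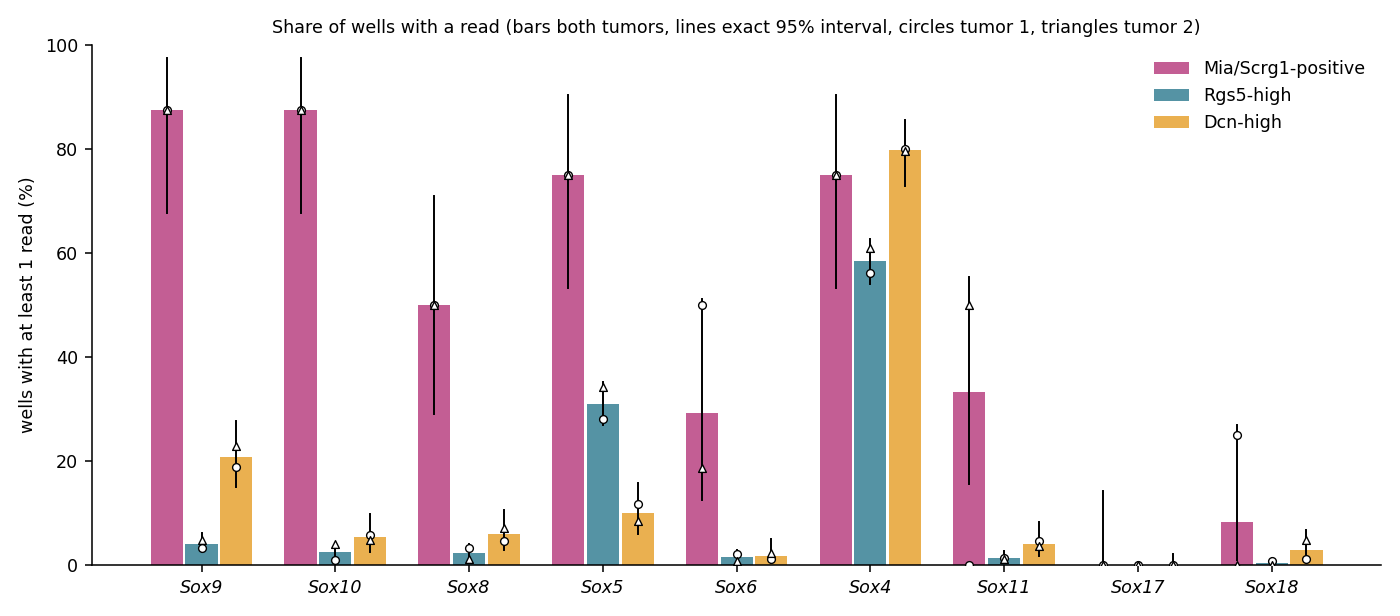
Share of wells with at least 1 read of each Sox member (y axis, percent) in Mia/Scrg1-positive (24 wells), Rgs5-high (517) and Dcn-high (168) cells; bars give both tumors, lines the exact 95% binomial interval, circles tumor 1 and triangles tumor 2. *Sox9* and *Sox10* stand at 87.5% in Mia/Scrg1-positive cells and at most 20.8% elsewhere, *Sox4* is at 58.4% or more in every class, and *Sox17* is at 0.

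Sequence before the transcription start is shown for *Sox5* and *Sox8*, since both were read in many Mia/Scrg1-positive cells but only *Sox5* was also common in Rgs5-high cells. RefSeq promoter windows on GRCm38.p6, the assembly of mm10, matched 5 of the 9 members (*Sox8*, *Sox5*, *Sox6*, *Sox4* and *Sox11*) by symbol, and *Sox9*, *Sox10*, *Sox17* and *Sox18* had no entry. The 250 bases upstream of the start are printed 5′ to 3′ on the gene's strand, which is the minus strand for both, at chr6:143947107-143947356 for *Sox5* (a start inside the gene) and chr17:25570687-25570936 for *Sox8*. Capitals mark the letters ACAAT, a core that Sox proteins are known to bind, or their reverse complement ATTGT.
Sox5: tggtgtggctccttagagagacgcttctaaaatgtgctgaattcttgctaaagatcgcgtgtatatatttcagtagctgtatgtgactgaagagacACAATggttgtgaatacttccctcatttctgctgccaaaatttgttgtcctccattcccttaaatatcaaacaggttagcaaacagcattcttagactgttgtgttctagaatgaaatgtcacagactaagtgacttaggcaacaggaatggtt
Sox8: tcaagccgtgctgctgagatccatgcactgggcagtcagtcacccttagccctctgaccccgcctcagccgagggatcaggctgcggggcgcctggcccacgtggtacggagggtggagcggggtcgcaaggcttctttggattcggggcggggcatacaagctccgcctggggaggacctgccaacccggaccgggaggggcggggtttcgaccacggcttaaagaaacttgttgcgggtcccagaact
The *Sox5* window held 1 match and the *Sox8* window 0. Of 32851 windows of the same length, 9086 (27.7%) held a match on either strand, so a match is common and is given as a description of the letters only.

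The SoxE genes *Sox9* (chr11:112782210-112787757), *Sox10* (chr15:79154913-79164490) and *Sox8* (chr17:25565893-25570686) each had their largest share of wells with a read in Mia/Scrg1-positive cells. *Sox9*, a cartilage regulator also active in epithelial progenitors, had a median of 49.1 RPKM (0 to 246) in the 8 Mia/Scrg1-positive wells of tumor 1, and of 39.6 RPKM (0 to 101) in the 16 of tumor 2. A read was found in 7 of 8 and 14 of 16 of these wells, 87.5% over both tumors (exact binomial 95% interval, 67.6 to 97.3). The medians were 0 in both other classes and both tumors, although single wells reached 84.2 RPKM in Rgs5-high and 133 in Dcn-high cells, so that the ranges overlapped.

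*Sox9* was also compared between the other classes, where it was not called. In Dcn-high against Rgs5-high cells its log2 fold change was 2.94 (SE 0.72, edgeR adjusted p = 0.0872), with 2.46 in tumor 1 and 3.07 in tumor 2. It was read in 35 of 168 Dcn-high wells (20.8%, 15.0 to 27.8) against 21 of 517 Rgs5-high wells (4.06%, 2.53 to 6.14), and the order held in tumor 1 (18.8% against 3.32%) and in tumor 2 (22.9% against 4.88%). After every well was thinned to 50000 reads, which left out 31 Rgs5-high and 9 Dcn-high wells, the shares were 15.7% and 2.88%. Mean *Sox9* RPKM was 55.6 ± 14.4 (SD over tumors, n = 2) in Mia/Scrg1-positive, 4.96 ± 3.85 in Dcn-high and 0.614 ± 0.241 in Rgs5-high cells. Of 685 Rgs5-high and Dcn-high wells, 8 reached the Mia/Scrg1-positive median.

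*Sox10*, a regulator of neural crest derivatives, was the most abundant member per length in these cells. Its median was 92.8 RPKM (0 to 348) in the 8 wells of tumor 1 and 102 RPKM (0 to 251) in the 16 wells of tumor 2, with a read in 7 of 8 and 14 of 16 (87.5% over both, 67.6 to 97.3). Outside these cells it was read in 13 of 517 Rgs5-high wells (2.51%, 1.35 to 4.26) and 9 of 168 Dcn-high wells (5.36%, 2.48 to 9.93), 11 and 3 of which had 1 to 3 reads. Thinning left 87.5%, 0.823% and 5.03%. A single well of tumor 1 held 60.0% of all *Sox10* reads of the Rgs5-high class. None of the 685 wells reached the Mia/Scrg1-positive median, and the mean RPKM was 113 ± 26.4 (SD over tumors, n = 2) in Mia/Scrg1-positive, 0.745 ± 0.374 in Dcn-high and 0.168 ± 0.0222 in Rgs5-high cells.

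**Figure D2:**
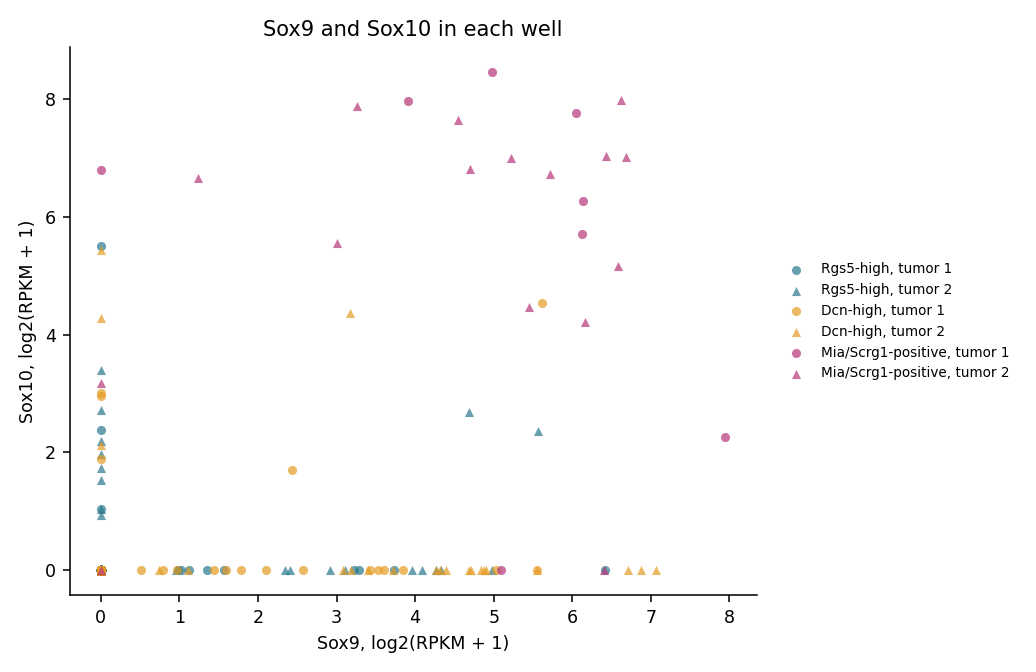
*Sox9* (x axis) against *Sox10* (y axis), both as log2(RPKM + 1), in each Mia/Scrg1-positive, Rgs5-high and Dcn-high well; circles are tumor 1 and triangles tumor 2. Most Mia/Scrg1-positive wells lie away from both axes, while wells of the other classes lie along an axis or at 0, with 5 of 685 holding reads of both genes.

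*Sox9* and *Sox10* were read together in most Mia/Scrg1-positive wells and mostly apart in the other classes. Both were present in 19 of 24 Mia/Scrg1-positive wells, *Sox9* alone in 2, *Sox10* alone in 2 and neither in 1. Of the Rgs5-high and Dcn-high wells, 2 of 517 and 3 of 168 held both, while 19 and 32 held *Sox9* without *Sox10*, and 11 and 6 *Sox10* without *Sox9*. Over all 727 wells, 26 held both, 53 *Sox9* alone and 20 *Sox10* alone. *Sox10* exceeded *Sox9* in RPKM in 16 of the 24 wells, and *Sox9* exceeded *Sox10* in 7. Over all 727 wells the Pearson correlation of log2(RPKM + 1) was 0.55, and within the 24 Mia/Scrg1-positive wells it was 0.09. The wells share their library totals and class, and these values are a description.

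*Sox8*, the third SoxE gene, was found in a part of the Mia/Scrg1-positive cells. It was read in 4 of 8 wells of tumor 1 (0 to 149 RPKM, median 8.55) and 8 of 16 of tumor 2 (0 to 113 RPKM, median 0.649), which was 50.0% over both (29.1 to 70.9). Of these 12 wells, 11 also held both *Sox9* and *Sox10*. It was read in 12 of 517 Rgs5-high and 10 of 168 Dcn-high wells, with 1 well of tumor 2 holding 45.0% of the reads of the Dcn-high class (224 RPKM). None of these 22 wells held both *Sox9* and *Sox10*.

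In the comparison of Mia/Scrg1-positive with Rgs5-high cells, *Sox9* and *Sox10* were called higher, 2 of the 5 members that passed the filter on mean RPKM (*Sox9*, *Sox10*, *Sox8*, *Sox5* and *Sox4*), where 13% of all genes tested were called (4.97% higher and 8.07% lower). *Sox10* and *Sox8* passed the filter only through the Mia/Scrg1-positive wells, with a mean of 0.892 and 0.850 RPKM over the other 703 wells, so nothing is read from the counts of members called in Mia/Scrg1-positive cells. Without a filter beyond 1 read, 3 of 8 members were called here, where 1695 of 17178 genes were called (738 higher and 957 lower). *Sox10* was higher by 9.33 on the log2 scale (SE 0.67, edgeR adjusted p = 0.00188), with 9.12 in tumor 1 and 9.16 in tumor 2. *Sox9* was higher by 6.16 (SE 0.83, adjusted p = 0.0105 in edgeR), with 7.02 and 5.40 in the tumors. *Sox8* had a log2 fold change of 6.69 (SE 1.62, edgeR adjusted p = 0.0524) and did not pass, with 6.13 and 8.31 in the tumors and 7 reads in all Rgs5-high wells of tumor 2. With ERCC totals in place of read totals, the calls over all genes were 1117 higher and 541 lower instead of 582 and 945, and *Sox8* (adjusted p = 0.0383) and *Sox5* (adjusted p = 0.0495) passed as well. *Sox8* also passed with a DESeq2 test (adjusted p = 4.53e-06), without a filter beyond 1 read (adjusted p = 0.0309) and against all other cells of the tumor (adjusted p = 0.0311), 4 of 17 alternatives.

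Against Dcn-high cells, *Sox10*, *Sox5* and *Sox9* were called higher in Mia/Scrg1-positive cells, 3 of 5 members, where 10.9% of all genes tested were called (3.11% higher and 7.78% lower). The log2 fold change was 6.98 for *Sox10* (SE 0.61, edgeR adjusted p = 0.00413), with 7.91 in tumor 1 and 6.14 in tumor 2. For *Sox9* it was 3.22 (SE 0.72, edgeR adjusted p = 0.0476), with 4.57 and 2.33 in the tumors. This *Sox9* call lay close to the threshold and was kept in 7 of the 16 alternatives that compared the same classes. It was lost with the tumor as a block (log2 fold change 3.52, adjusted p = 0.0588 in edgeR), without the wells that held an *Epcam* read (2.76, adjusted p = 0.146) and in 7 others, and the fold stayed between 2.76 and 3.52 in all 16. *Sox8* had a log2 fold change of 3.50 (SE 1.39, adjusted p = 0.178 in edgeR), with 5.86 and 2.17 in the tumors. It did not pass, but did with DESeq2 (adjusted p = 0.0325) and against all other cells of the tumor.

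**Figure D3:**
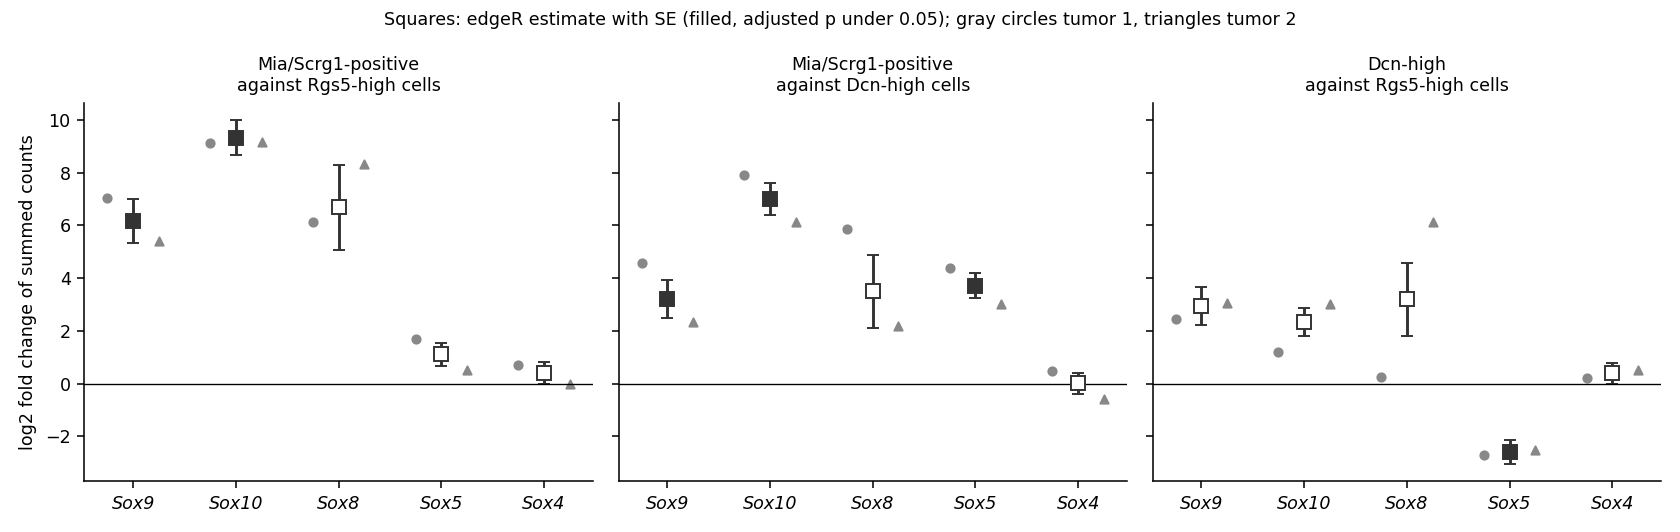
Log2 fold change of summed counts (y axis) of the 5 members that passed the filter, in the 3 comparisons of classes; squares with bars are edgeR's estimate and its SE (filled where the adjusted p is under 0.05), gray circles tumor 1 and gray triangles tumor 2. *Sox10* is highest in both comparisons of Mia/Scrg1-positive cells (9.33 and 6.98), *Sox5* is below 0 between Dcn-high and Rgs5-high cells (-2.59), and *Sox4* stays near 0.

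The SoxD genes encode cofactors without a transactivation domain of their own. *Sox5* (chr6:143828425-144782287) was the only tested member called between Rgs5-high and Dcn-high cells. It was read in 160 of 517 Rgs5-high wells (30.9%, 27.0 to 35.1), with 28.0% in tumor 1 and 34.1% in tumor 2, against 17 of 168 Dcn-high wells (10.1%, 6.01 to 15.7), with 11.8% and 8.43%. The highest Rgs5-high well held 124 RPKM and the highest Dcn-high well 36.5, while the medians were 0 in both classes, so the ranges overlapped. The reads were spread over many Rgs5-high wells, the richest of which held 3.55% of them. In Mia/Scrg1-positive cells *Sox5* was read in 6 of 8 wells of tumor 1 (0 to 49.3 RPKM, median 15.2) and 12 of 16 of tumor 2 (0 to 34.7 RPKM, median 5.93).

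*Sox5* was thus called in 2 comparisons. It was higher in Mia/Scrg1-positive than in Dcn-high cells by 3.71 on the log2 scale (SE 0.48, edgeR adjusted p = 0.0110), with 4.39 and 3.00 in tumors 1 and 2. Against all other cells of the tumor it was 1.5 (SE 0.40, edgeR adjusted p = 0.110) and was not called. In Dcn-high compared with Rgs5-high cells it fell by 2.59 on the log2 scale (SE 0.45, edgeR adjusted p = 0.0366), with -2.70 and -2.50 in the tumors, 1 of 5 members called there, where 5.54% of all genes tested were called (3.55% higher and 1.99% lower). With ERCC totals the split over all genes was 580 higher and 111 lower instead of 416 and 233. The *Sox5* call was lost with the tumor as a block (adjusted p = 0.0838 in edgeR), with ERCC totals as the library size (adjusted p = 0.0710) and without wells that held an *Epcam* read (adjusted p = 0.0706), with the log2 fold change between -2.60 and -1.91. Mia/Scrg1-positive and Rgs5-high cells differed in *Sox5* by 1.11 (SE 0.43, edgeR adjusted p = 0.163), which did not pass, with 1.69 and 0.51 in the tumors. The mean RPKM was 12.4 ± 5.21 (SD over tumors, n = 2) in Mia/Scrg1-positive, 5.59 ± 1.88 in Rgs5-high and 0.765 ± 0.261 in Dcn-high cells. The *Sox5* locus spans 6 other annotated genes, of which 1 (*Sox5os3*) is in the tables and had 0 reads. Smart-seq2 reads carry no strand, so reads of the overlapping transcripts cannot be told apart from those of *Sox5*.

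*Sox6* (chr7:115470872-116040776), the partner of *Sox5* in cartilage, was rare. It was read in 4 of 8 and 3 of 16 Mia/Scrg1-positive wells of the tumors (highest 12.4 and 62.9 RPKM), and 1 well of tumor 2 held 55.3% of its reads in that class. It was read in 8 of 517 Rgs5-high and 3 of 168 Dcn-high wells. Of the 7 Mia/Scrg1-positive wells with *Sox6*, 6 also had *Sox5*. It averaged under 1 RPKM and did not pass the filter. Without a filter beyond 1 read its log2 fold change in Mia/Scrg1-positive cells was 4.69 against Rgs5-high (SE 1.56, edgeR adjusted p = 0.119) and 5.61 against Dcn-high cells (SE 1.65, adjusted p = 0.0933), neither of which passed. In tumors 1 and 2 the values were 3.12 and 8.44 against Rgs5-high and 5.53 and 5.44 against Dcn-high cells.

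*Sox4* (chr13:28948919-28953699), a SoxC factor of progenitors and of many carcinomas, was spread over all classes. Its median was 8.81 RPKM in Mia/Scrg1-positive wells (0 to 90.4), 3.19 in Rgs5-high wells (0 to 92.8) and 6.43 in Dcn-high wells (0 to 81.2). A read was found in 18 of 24 (75%), 302 of 517 (58.4%) and 134 of 168 wells (79.8%), and after thinning in 62.5%, 47.3% and 61.0%. None of the comparisons passed. The log2 fold change was 0.40 (SE 0.40, edgeR adjusted p = 0.584) for Mia/Scrg1-positive against Rgs5-high, 0.01 (SE 0.40, edgeR adjusted p = 0.994) against Dcn-high and 0.39 (SE 0.40, edgeR adjusted p = 0.787) for Dcn-high against Rgs5-high cells. In tumors 1 and 2 it was 0.72 and -0.03, 0.49 and -0.57, and 0.23 and 0.54 in the same order. The locus is overlapped by 1 annotated gene (*Gm46405*) that is not among the symbols of the tables.

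*Sox11* (chr12:27334268-27342718), the other SoxC gene, was read in 8 of 16 Mia/Scrg1-positive wells of tumor 2 (up to 17.6 RPKM) and in 0 of 8 of tumor 1, where a count of 0 allows a share of up to 37.5%. The difference between the tumors was not tested, since each tumor is 1 sample, and plate and tumor cannot be told apart. All 8 of these wells also held *Sox4*. Outside them *Sox11* was read in 7 of 517 Rgs5-high and 7 of 168 Dcn-high wells.

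The SoxF genes of endothelium were nearly absent. *Sox17* (chr1:4490928-4497426) was read in 0 of 727 wells, which allows a share of up to 0.413% of wells with a read. *Sox18* (chr2:181669837-181671640) was read in 9 wells, 2 Mia/Scrg1-positive, 2 Rgs5-high and 5 Dcn-high, and both of the first were the tumor 1 wells with the highest *Dcn* of that class (1335 and 2676 RPKM). *Sox18* and *Sox11* averaged under 1 RPKM and did not pass the filter. Without a filter beyond 1 read, neither was called in any of the 3 comparisons by edgeR, with a log2 fold change against Rgs5-high cells of 5.68 for *Sox11* (SE 2.34, adjusted p = 0.202) and 3.99 for *Sox18* (SE 3.00, adjusted p = 0.513) in Mia/Scrg1-positive cells. In tumors 1 and 2 the values were -3.26 and 8.11 for *Sox11* and 3.92 and 0 for *Sox18*, so each fold change rested on 1 tumor.

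**Figure D4:**
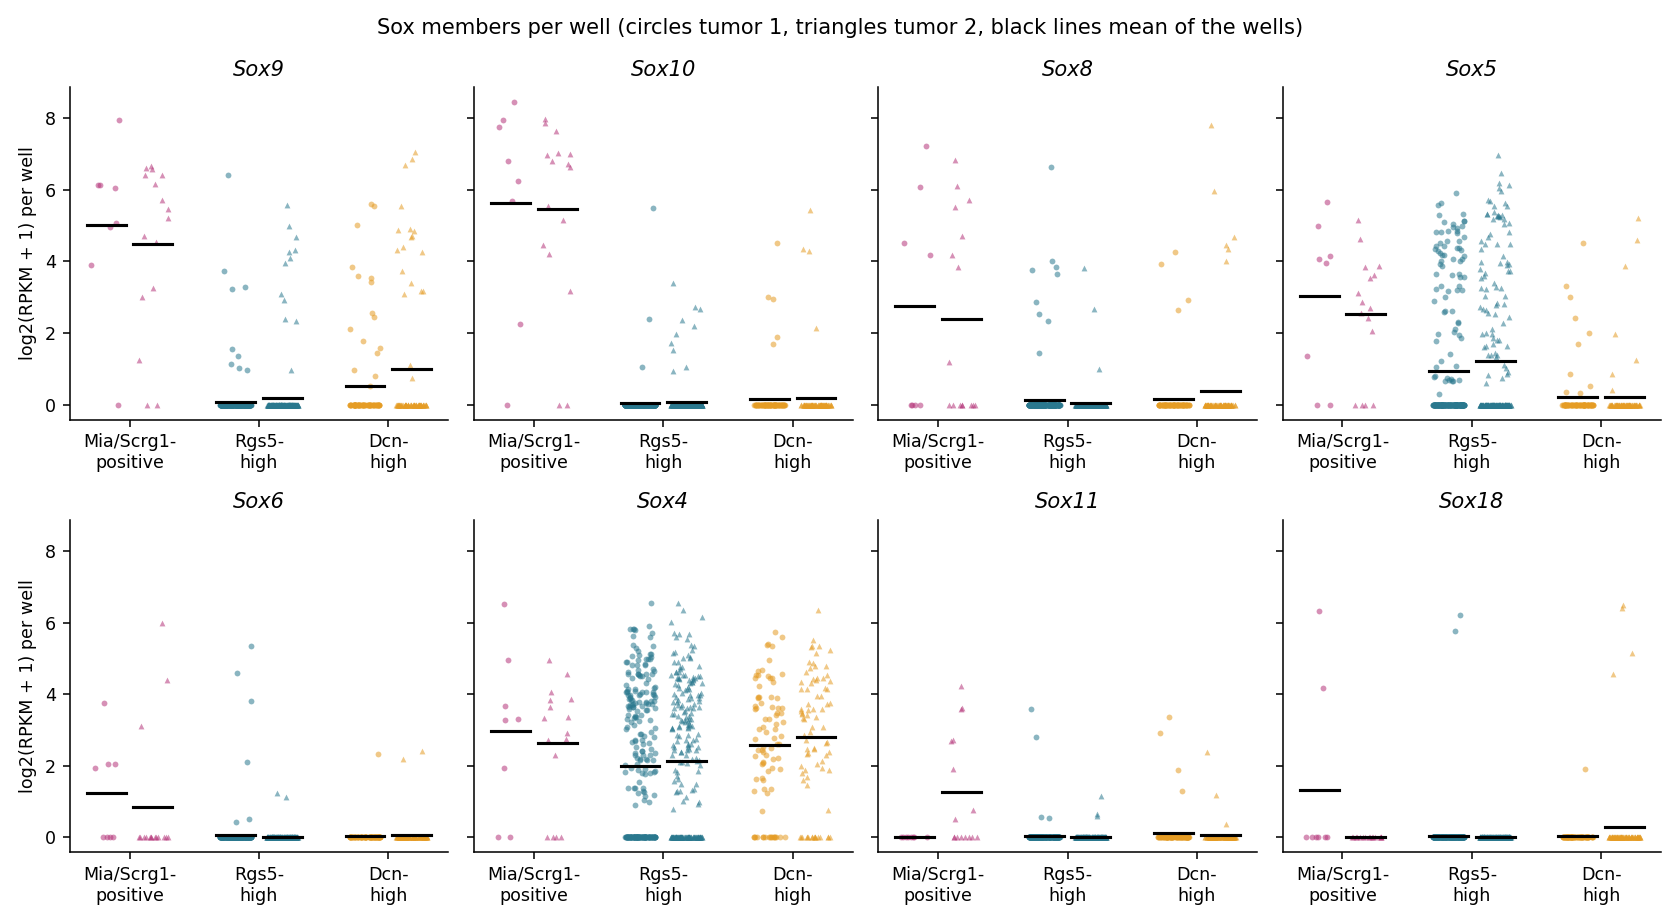
Log2(RPKM + 1) per well (y axis) of the 8 members with a read, by class; circles are tumor 1, triangles tumor 2, and black lines the mean over wells. *Sox9* and *Sox10* fill most Mia/Scrg1-positive wells, *Sox5* reads are common in Rgs5-high cells, *Sox4* reads occur in all classes, and *Sox11* is at 0 in the 8 Mia/Scrg1-positive wells of tumor 1.

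The 24 Mia/Scrg1-positive wells were not alike in genes of other cell types. The *Krt14* RPKM was at least 100 in 4 wells, all of tumor 1 (F14, G21, H3 and N1), and H3 and N1 also had a *Dcn* RPKM of 1335 and 2676. F14 had the highest *Sox9* (246 RPKM) with 3.78 of *Sox10*, G21 the highest *Sox4* (90.4), H3 had no *Sox9* read and N1 no *Sox10* read. *Epcam* was read in 5 wells, in which *Sox9* was 0 to 246 RPKM (median 70.3) and *Sox10* 0 to 130 (median 17.5), against medians of 33.0 and 110 in the 19 wells without. Without the 4 wells, *Sox9* and *Sox10* were each read in 18 of 20 (90%). The log2 fold change of *Sox9* against Dcn-high cells was then 2.99 (edgeR adjusted p = 0.0591) and was no longer called, while the *Sox10* and *Sox5* calls of that comparison and both calls against Rgs5-high cells held.

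**Figure D5:**
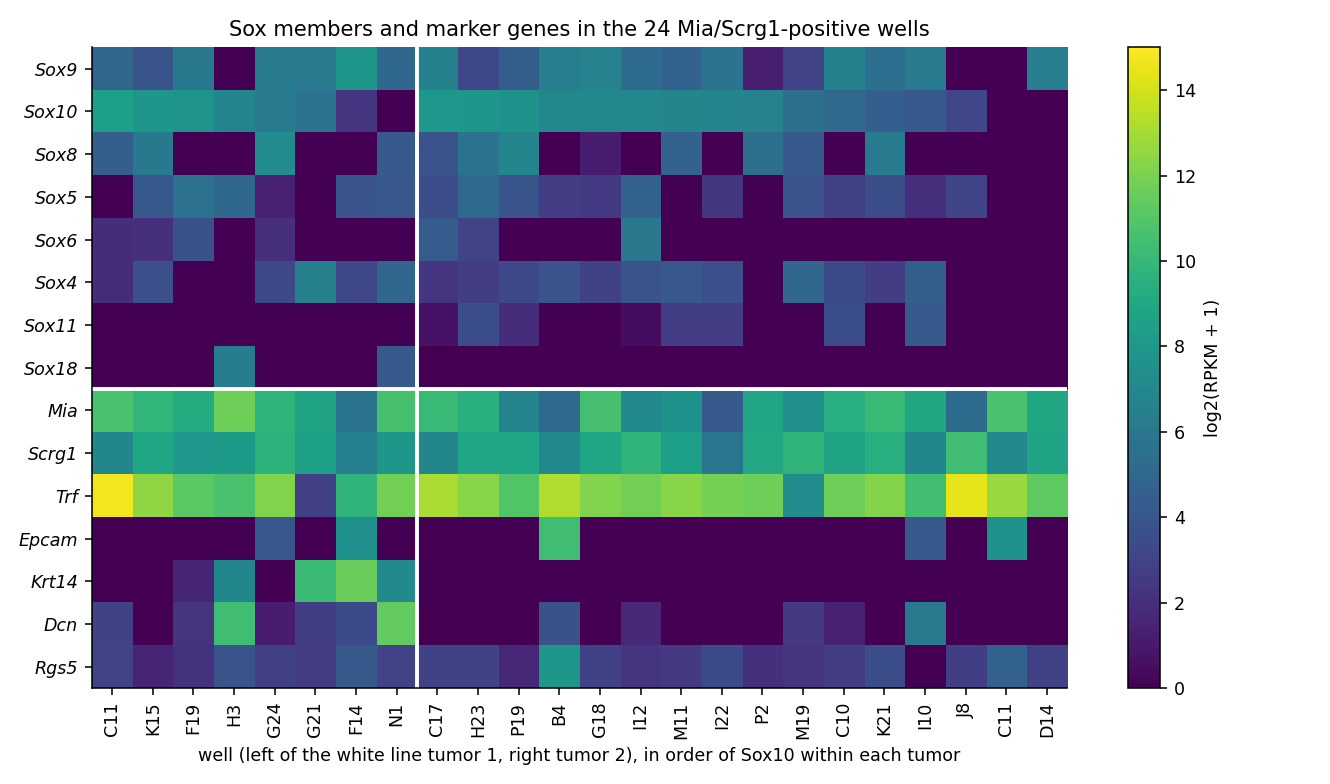
Log2(RPKM + 1) (color) of the 8 Sox members with a read and of 7 marker genes (rows) in the 24 Mia/Scrg1-positive wells (columns), tumor 1 left of the white line and tumor 2 right, in order of *Sox10* within each tumor. The wells with high *Krt14* or *Dcn* (H3, G21, F14 and N1) are all in tumor 1, and *Sox11* is read in tumor 2 alone.

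Marker lists for cells that could use these factors were read in the same wells. Of 18 cartilage matrix genes, 10 were tested, and 6 were called higher in Mia/Scrg1-positive than in Rgs5-high cells (*Col9a1*, *Col9a3*, *Col11a1*, *Matn4*, *Comp* and *Wwp2*). Of the 10, 4 (*Col9a2*, *Matn4*, *Comp* and *Ucma*) passed the filter only through the Mia/Scrg1-positive wells, so the counts describe these genes and no median is given. Against Dcn-high cells 3 were called higher (*Col9a1* by 6.77, *Col9a3* by 7.21 and *Wwp2* by 3.35 on the log2 scale), and *Epyc* was called lower, with reads in 0 of 24 against 19 of 168 wells and at least 113-fold lower at a limit of 3 reads over the class. *Col2a1*, the main collagen of hyaline cartilage, had a read in 6 of 24 wells, and *Acan*, its aggrecan, in 1. In Dcn-high compared with Rgs5-high cells, *Col11a1* and *Epyc* were called higher.

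Of 11 Schwann cell and glial genes, 3 were tested and 1 was called, *S100b*, higher by 8.16 and 5.46 on the log2 scale than in Rgs5-high and Dcn-high cells and read in 20 of 24 wells. *Foxd3*, *Erbb3* and *Mal* had no read in Mia/Scrg1-positive wells, and *Cdh19* was read in 6. Of 6 melanocyte genes, *Dct*, *Tyr*, *Tyrp1*, *Mlana* and *Pmel* had no read there and *Mitf* was read in 5 wells. *Pmel* was called lower than in Rgs5-high cells (edgeR adjusted p = 0.0484), but only 11 of 517 Rgs5-high wells had a *Pmel* read. At so small a share, the lack of a read in 24 wells says little about a difference, and nothing is read from this call.

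Of 7 basal and myoepithelial genes, *Krt5*, *Trp63* and *Oxtr* were called higher in Mia/Scrg1-positive than in Rgs5-high cells, and *Trp63* and *Oxtr* than in Dcn-high cells, while *Krt14*, *Krt17*, *Trp63* and *Oxtr* passed the filter only through the Mia/Scrg1-positive wells. *Trp63* was read in 12 and *Oxtr* in 13 of 24 wells. *Myh11*, a smooth muscle myosin of the same list, had a log2 fold change of -5.32 against Rgs5-high cells (SE 1.35, edgeR adjusted p = 0.0582) and was read in 4 of 24 against 334 of 517 wells. The summed RPKM of the list in these wells had a median of 477 (16.9 to 5345) in tumor 1 and of 41.1 (0 to 316) in tumor 2, against medians of 0 to 21.7 in the other classes. Single wells of the other classes reached 744 (Rgs5-high, tumor 1) and 874 (Dcn-high, tumor 2), so the ranges overlapped. Of 12 epithelial genes, 11 were tested and only *Cldn3* was called, higher than in both classes. Against Rgs5-high cells the fold changes of *Krt7*, *Krt19* and *Cldn4* were negative and those of the other tested genes positive. The summed RPKM had a median of 92.5 (0 to 367) in tumor 1 and of 115 (0 to 3909) in tumor 2, against medians of 0 to 0.600 elsewhere. Single Rgs5-high wells reached 3712 in tumor 1 and 1457 in tumor 2, so the ranges overlapped. *Trp63* was also called higher in Dcn-high than in Rgs5-high cells. The part that cells of these kinds have in the Sox values was not tested.

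Of 14 endothelial genes, *Flt1*, *Esam* and *Plvap* were called lower in Mia/Scrg1-positive than in Rgs5-high cells and *Plvap* than in Dcn-high cells. *Flt1*, *Emcn* and *Esam* were called lower in Dcn-high than in Rgs5-high cells. No immune gene was called (2 of 6 tested), and the highest in Dcn-high cells, where the list was highest, were *Lyz2*, *Cd68* and *Csf1r* at a mean RPKM of 3.54, 2.98 and 1.44. Of 3 cycling genes, *Mki67* was called lower in Mia/Scrg1-positive cells than in both other classes, and *Top2a* and *Birc5* were not called in these comparisons. Against Dcn-high cells *Top2a* was at 0.25 and *Birc5* at -0.34 on the log2 scale. *Mki67* was read in 6 of 24 Mia/Scrg1-positive, 79 of 517 Rgs5-high and 12 of 168 Dcn-high wells, so the share of wells with a read was largest in the first. Of the 11 other Sox-family genes in the tables, *Sox12* and *Sox13* were tested and neither was called, and the highest in Mia/Scrg1-positive cells were *Sox13*, *Sox12* and *Sox14* at a mean RPKM of 11, 3.05 and 1.12.

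The genes whose levels followed the members most closely over the 727 wells were read as a description, by the Pearson correlation of log2(RPKM + 1) among genes read in at least 20 wells. For *Sox10* they were *Extl1* (0.77), *Scrg1* (0.75, a gene of the class rule), *Atp6v0e2* (0.74), *Galnt3* (0.74) and *Cited4* (0.74), and within the classes these values were lower, 0.05 (*Scrg1*) to 0.67 in Mia/Scrg1-positive, -0.02 to 0.29 in Rgs5-high and -0.04 to 0.27 in Dcn-high wells. For *Sox9* they were *Eps8l2* (0.64), *Gata3* (0.62), *Tfap2c* (0.62), *Col9a3* (0.60) and *Tfap2b* (0.60), of which *Gata3*, *Tfap2c* and *Tfap2b* encode transcription factors of mammary epithelium and *Col9a3* a cartilage collagen. Within the classes they were 0.27 to 0.55, 0.15 to 0.26 and 0.29 to 0.45 in the same order. *Sox8* was followed by *Shisa2*, *Lgr6*, *Atp6v0e2*, *Scrg1* and *Gpr64* (0.44 to 0.51, and 0.33 to 0.49 within Mia/Scrg1-positive wells), and *Sox6* by *Paqr6*, *Luzp2*, *Ndp*, *Oxtr* and *Galnt3* (0.38 to 0.44, and 0.20 to 0.60 within these wells). Within Rgs5-high wells they were -0.02 to -0.01 for *Sox8* and -0.01 to 0.02 for *Sox6*. Within Dcn-high wells they were -0.04 to 0.33 and -0.02 to 0.56. For *Sox11* they were *Slc38a1*, *Arnt2*, *Col9a1*, *Lgr6* and *Pcsk6* (0.40 to 0.43 over both tumors, 0.55 to 0.63 in tumor 2 and -0.02 to 0.05 in tumor 1). The highest values for *Sox5* (*Scrg1*, *Bcam*, *Cmbl*, *Ets1* and *Itga6*) were at most 0.21, too weak to set these genes apart. The wells share class and library totals, and no p is given.

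*Sox9* reads outside the Mia/Scrg1-positive class were compared with reads of that class's own genes in the same wells. Of the 35 Dcn-high wells with *Sox9*, 20 also had a *Trf* read, 3 *Mia*, 1 *Scrg1* and 5 *Epcam*, while 77, 3, 1 and 18 of all 168 Dcn-high wells did. Of the 21 Rgs5-high wells with *Sox9*, 10 had a *Trf* read and 1 each *Mia* and *Scrg1*, against 150, 12 and 4 of 517. *Rgs5*, whose median was 5438 RPKM in Rgs5-high cells, had a median of 6.21 RPKM in Dcn-high cells, while the medians of *Dcn* in Rgs5-high cells and of *Mia* and *Scrg1* in both classes were 0. The source of the *Sox9* reads outside the class was not tested. In 1 Dcn-high well (M19 of tumor 1) *Sox9*, *Sox10* and *Sox6* were read together, at 47.8, 22.1 and 4.0 RPKM, with 310 RPKM of *Mia*, 0 of *Scrg1* and 329 of *Trf*.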

How the data were processed

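The plate number in a well's label gave its tumor (2 tumors, 384 wells each). The authors deposited whole-number counts of reads per gene, without normalization, from 43-nucleotide single-end reads aligned to mm10 with STAR and counted on RefSeq genes with rpkmforgenes. The authors' RPKM values, also deposited, are per kilobase of gene model. They follow a scaling to the total including the ERCC spike-ins, so a larger ERCC share lowers them. The scaling was read from the gene *Sparc* alone. Its RPKM per count, times that total, had a coefficient of variation of 3.98% between kept wells, and 14.8% without the spike-ins. No file columns were left unused. Members, classes and lists were chosen with earlier results of these data known.

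Wells with at least 10000 non-ERCC reads were kept. Counts were summed per tumor and class and compared by the quasi-likelihood test of edgeR 4.0.16 in R 4.3.3, with TMM factors and no covariate. SEs are the log2 fold change over the square root of *F*. Classes of a tumor come from 1 animal, so libraries are paired, and deviations from the class means correlated across genes between same-tumor libraries of different classes by 0.063 (Mia/Scrg1-positive and Rgs5-high), 0.016 (Mia/Scrg1-positive and Dcn-high) and 0.141 (Dcn-high and Rgs5-high). The cells of a class are not replicates, and a smaller share of positive cells and less RNA per cell cannot be told apart in summed counts. Share intervals are exact (Clopper-Pearson, 95%), and these and the limits of a count of 0 (3 counts) cover counting error only, since reads carry no molecular identifiers. Named genes were all members, the genes of each list past the test (or the 3 highest of a list without one), and the 5 genes most correlated with each member, some of which are not reported here. DESeq2 1.42.0 and other settings were alternatives. The edgeR step was tested on simulated data with known changes. No protein sequences were used here.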

Additional observations from a re-analysis of the deposited data

Results flagged for a closer look

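Reads of Sox genes were also found in wells that entered no comparison, which is what drew attention to them. In the 18 unclassified wells there were 55 *Sox9* reads in 2 wells, 121 *Sox10* reads in 3, 30 *Sox5* reads in 3, 69 *Sox6* reads in 2 and 79 *Sox4* reads in 11. Both wells with *Sox9* (P7 of tumor 1 and K4 of tumor 2) also held *Sox10* (304 and 105 RPKM), *Trf* (243 and 4735 RPKM) and *Epcam* (2142 and 1654 RPKM), and neither had a *Scrg1* read. In the 41 wells under the read minimum there were 40 *Sox9* reads in 2 wells, 17 *Sox10* reads in 3 and 6 *Sox4* reads in 4. The share of these reads that comes from other cells was not tested.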

How the results depend on the processing

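The 3 counts of members called (2 of 5 against Rgs5-high, 3 of 5 against Dcn-high and 1 of 5 between Dcn-high and Rgs5-high cells) were recomputed under 17 alternatives each, 1 of them (without Mia/Scrg1-positive wells with *Krt14* or *Dcn* RPKM of at least 100) chosen after seeing the data. At an adjusted p of 0.001, all 3 counts were 0 (4, 4 and 3 members at an unadjusted p under 0.05 in edgeR), with 30, 8 and 0 of all genes called and 3345, 3231 and 2030 at an unadjusted p under 0.05. With ERCC totals as the library size, the first count was 4, and the median log2 fold change of all genes moved from -0.12 to 0.70 there and from -0.04 to 0.65 between Dcn-high and Rgs5-high cells, where *Sox10* was called instead of *Sox5*. Between Dcn-high and Rgs5-high cells the count was 0 with the tumor as a replicate block and 0 without wells with an *Epcam* read (3 members at an unadjusted p under 0.05 in edgeR each time), 3 with the DESeq2 test (*Sox9*, *Sox10* and *Sox5*), 2 with each cell scaled to the same total (*Sox9* and *Sox5*) and 2 for each class against all other cells of the tumor (*Sox10* and *Sox5*), where *Sox10* turned to -2.82 because the other cells then include the Mia/Scrg1-positive ones. The replicate block left the first count at 2, moved the second to 2 and changed no call of a member besides *Sox9* against Dcn-high and *Sox5* between Dcn-high and Rgs5-high cells. Over all genes it called 933, 790 and 353, and DESeq2 called 3142, 2960 and 1737, against 1527, 1276 and 649. Where either *Mia* or *Scrg1* was enough the calls were 814, 711 and 692, against all other cells of the tumor 728 for Mia/Scrg1-positive and 1743 for Dcn-high cells, and with ERCC totals 810 for Mia/Scrg1-positive against Dcn-high cells. The *Sox9* call against Dcn-high cells was kept in 7 of the 16 alternatives with that reference, with a log2 fold change of 2.76 to 3.52 and an adjusted p (edgeR or DESeq2) of 0.000153 to 0.147.

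*Sox4*, never called, turned to -0.36 against Rgs5-high and -0.75 against Dcn-high cells without the *Krt14* or *Dcn* wells, and against Dcn-high cells to -0.024 with the replicate block, -0.027 without a filter beyond 1 read, -0.021 with filterByExpr and -0.12 without wells whose *Rgs5* or *Dcn* was above both *Mia* and *Scrg1*. The share of Mia/Scrg1-positive cells with a *Sox10* read was 63.2% (24 of 38) where either *Mia* or *Scrg1* was enough, and its other alternatives and all of those for *Sox9* stayed within the interval of the main value. Both shares were 87.5% in each tumor alone. Without either tumor no residual spread is left, so counts of members called could not be had. The values of each tumor stand beside the members' fold changes between classes, but not beside those of most alternatives or of list genes. With 8 Mia/Scrg1-positive wells in tumor 1, a count of 0 allows a share of up to 37.5%.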
